A study of Rattus norvegicus with 14 samples.

Results

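The genes described here encode the actins, myosins and thin-filament proteins that make up the contractile filaments of smooth muscle. They were Acta2, Actg2, Myh11, Myh9, Myh10, Myl6, Tagln, Cnn1, Tpm1 and Tpm2, chosen by name, and every probe set that the platform annotation assigned to exactly 1 of these symbols was taken. This gave 17 of the 31042 probe sets tested and 9 of the 10 genes. Myl6 was listed only on a probe set shared with Myl6b and Myl6l and has no value here. A further 6 probe sets were left out because they listed Acta2 together with Actc1, or Myh9 under more than 1 gene record. Where a gene had several probe sets, the one with the highest 14-array mean stands for it. The whole table covers 14217 named genes.

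The arrays measured thoracic aortas of Sprague-Dawley rats labelled A-CRF, in which chronic renal failure was induced with adenine (8 samples), and Control (6 samples). The series title names slowed aortic relaxation and altered genes of excitation-contraction coupling in this model. Adenine dose, duration, age and sex are not stated in the labels. Nor do the labels tie samples to separate animals, and all p-values therefore reflect only the variation among these samples, part of which may be technical.

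Smooth muscle cells shorten when myosin filaments, built from the heavy chain Myh11 and light chains, pull on actin filaments made largely of alpha-actin (Acta2) and, most abundantly in visceral smooth muscle, gamma-actin (Actg2). Tropomyosins (Tpm1, Tpm2) lie along the actin filament, calponin (Cnn1) binds it and restrains the myosin motor, and transgelin (Tagln) cross-links it. Myh9 and Myh10 are non-muscle myosin heavy chains, used for adhesion, migration and division in most cell types. In vascular smooth muscle a loss of Myh11, Cnn1 and Tagln together with a gain of non-muscle isoforms is the textbook mark of cells leaving the contractile state.

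The 8 further smooth muscle markers examined were all clearly above the low end of the table (4.82), with Control means of at least 7.17, and none passed the test of A-CRF against Control. Of 9 skeletal muscle markers 3 had a Control mean more than 1 log2 unit over that low end. They were the fast myosin Myh1 (8.68 in A-CRF, 9.02 in Control), the skeletal actin Acta1 (8.19 in A-CRF, 7.76 in Control) and the creatine kinase Ckm (5.68 in A-CRF, 6.09 in Control), of which Ckm was lower in A-CRF (adjusted p = 0.023). The fast myosins Myh2 and Myh4 and the calcium buffer Pvalb had means of 5.05 to 5.20 in A-CRF and 5.06 to 5.10 in Control. The part of skeletal muscle in the results was not tested. On 3 arrays, A-CRF 1, A-CRF 4 and Control 1, the GAPDH control probes differed between the 3' and the 5' end of the transcript by 1.90, 1.63 and 1.58 log2 units, against 0.37 to 0.55 on the others. The called results are also given without these 3 arrays. In a whole aorta, fewer smooth muscle cells and less RNA per cell cannot be told apart.

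Of the 9 genes, 2 were lower in A-CRF and none was higher (limma over all probe sets, adjusted p under 0.05), while 7 did not pass. The background was 2.05% of all probe sets called in either direction, 1.26% called higher and 0.789% called lower. It was not matched to the level of these genes, whose lowest 14-array mean was 8.53 (Myh9). The share called in either direction was 5.67% for means of 8 to 9, 10.4% at 11 to 12 and 14.3% above 12. Among all named genes it was 2.99%. The median change of the 9 genes was -0.18 log2 units, 8 of the changes being below 0, against a median of -0.0020 over all probe sets. That median was not taken by mean level. The 2 genes were the gamma-actin Actg2 and the myosin heavy chain Myh11. Leaving out single arrays gave between 0 and 2 lower genes, with 0 without A-CRF 3, A-CRF 5 or Control 2. Other settings of the analysis gave 1 to 3 lower genes.

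**Figure D1:**
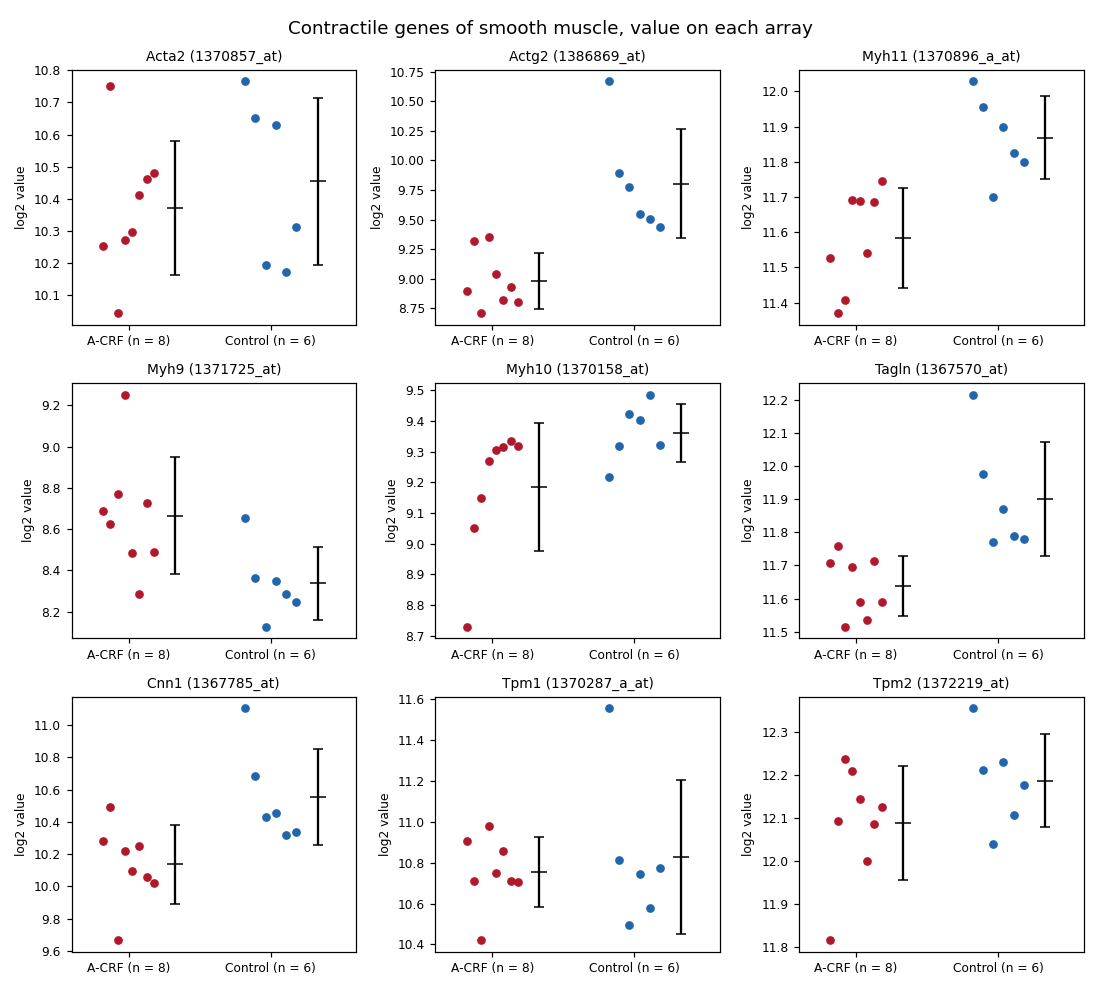
Log2 value of the probe set that represents each of the 9 genes (y axis, own scale per panel) on the 8 A-CRF and 6 Control arrays, with the group mean and SD as black bars. The groups do not overlap for Actg2 and Tagln, and Control 1 is the highest Control array for each gene but Myh10.

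Among the 9 genes Actg2 had the largest change. It had a lowest value of 8.71, a median of 8.91 and a highest of 9.35 log2 units on the A-CRF arrays, against 9.44, 9.66 and 10.67 on the Control arrays. All 8 A-CRF arrays lay below all 6 Control arrays. Mean levels were 8.98 ± 0.24 for the 8 A-CRF arrays and 9.80 ± 0.46 for the 6 Control arrays (SD), a change of -0.82 ± 0.17 log2 units (SE) or a 1.77-fold lower level (limma, adjusted p = 0.028). Control 1 alone carried the top value, and without it the change was -0.65 (adjusted p = 0.024). Without the 3 arrays of large GAPDH difference it was -0.70 (adjusted p = 0.014). Leaving out any 1 of A-CRF 3, 5 or 8 or Control 2 or 3 ended the call, with adjusted p up to 0.058.

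Acta2, the main actin of arterial smooth muscle, had values of 10.04 to 10.75 (median 10.35) in A-CRF and of 10.17 to 10.77 (median 10.47) in Control, so the groups covered nearly the same range. Its change was -0.08 ± 0.12 log2 units (SE, adjusted p = 0.86), with a 95% interval of -0.33 to 0.17. The interval of Actg2 ran from -1.19 to -0.45.

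Windows around the gene starts of the 2 smooth muscle actins are shown because their changes differed, and because the CArG box, the site of serum response factor, is the textbook element of smooth muscle actin promoters. Each window runs from 250 bases before to 50 after the RefSeq gene start (GRCr8). Capitals mark a CArG box in which up to 1 letter of the inner A and T run is another letter. This pattern reads alike on both strands.
Acta2, chr1:241172454-241172753, minus strand: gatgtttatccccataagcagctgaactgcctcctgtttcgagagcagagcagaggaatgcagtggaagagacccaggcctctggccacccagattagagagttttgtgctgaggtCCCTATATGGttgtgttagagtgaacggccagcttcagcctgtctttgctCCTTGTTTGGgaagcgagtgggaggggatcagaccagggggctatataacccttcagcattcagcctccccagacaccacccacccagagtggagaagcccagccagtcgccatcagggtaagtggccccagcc
Actg2, chr4:117593990-117594289, minus strand: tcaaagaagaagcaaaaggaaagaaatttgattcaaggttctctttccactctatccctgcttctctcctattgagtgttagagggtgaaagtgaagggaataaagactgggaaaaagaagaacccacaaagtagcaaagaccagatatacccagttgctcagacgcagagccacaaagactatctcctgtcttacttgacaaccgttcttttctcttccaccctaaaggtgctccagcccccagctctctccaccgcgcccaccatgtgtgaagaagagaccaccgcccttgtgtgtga
The Acta2 window held 2 such matches, starting 134 and 84 bases before the gene start, and the Actg2 window held 0. In the Actg2 window an ATG stands 15 bases after the RefSeq start, so the start in this record may lie in a coding exon and the window may not be the promoter. Whether it is was not tested, and nothing is drawn from its lack of a match. Among 33469 windows of the same length 9.42% held at least 1 match, and 1.64% held an exact box. Windows were found for 8 of the 10 genes, and Acta2 was the 1 gene among them with a match. An ATG also stood 21 bases after 1 of the Myh9 starts and 16 after the Myh10 start. Whether those windows are promoters was not tested either. The MCAT motif CATTCC, searched on both strands, stood in 14.2% of all windows and in those of 3 of these genes, Acta2, Tpm1 and Myh10. Srf itself, the serum response factor, averaged 8.02 ± 0.17 in A-CRF and 8.08 ± 0.22 in Control (SD, n = 8 and 6), and its coactivator Myocd averaged 7.01 ± 0.26 in A-CRF and 7.17 ± 0.54 in Control. Neither passed the test (adjusted p = 0.89 for Srf and 0.83 for Myocd).

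Among the myosin heavy chains Myh11 was lower. The probe set that represents it had values of 11.37 to 11.75 (median 11.61) in A-CRF and 11.70 to 12.03 (median 11.86) in Control. The groups overlapped through Control 3 at 11.70, which lay below A-CRF 8 at 11.75, while all 8 A-CRF arrays were below the Control median. The change was -0.29 ± 0.07 log2 units (SE, adjusted p = 0.043), a 1.22-fold lower level. It kept the call without A-CRF 4, 7 or 8 or Control 3 and lost it without any other single array (adjusted p up to 0.093). In 14 other settings of the analysis it passed in 5, with adjusted p from 0.027 to 0.53, and without the 3 arrays of large GAPDH difference the change was -0.26 (adjusted p = 0.083). A second probe set of Myh11 averaged 6.46 ± 0.28 in A-CRF and 6.70 ± 0.32 in Control (SD, n = 8 and 6), with a similar change of -0.24 ± 0.15 (SE) that did not pass (adjusted p = 0.53). Among the 14 settings this probe set stood for Myh11 both with the second-highest and with only single-transcript probe sets.

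The non-muscle heavy chains did not pass on their own. Myh9 had 8.29 to 9.25 (median 8.66) in A-CRF and 8.13 to 8.66 (median 8.32) in Control, and 7 of 8 A-CRF arrays were above the Control median. Its change was 0.33 ± 0.12 log2 units (SE, adjusted p = 0.21), the 1 positive value among the 9 genes. The Myh9 probe set was annotated to a gene record that the RefSeq table used here does not hold, and the symbol is the annotation's. Myh10 had 8.73 to 9.34 (median 9.29) in A-CRF and 9.22 to 9.49 (median 9.36) in Control, with a change of -0.18 ± 0.09 (SE, adjusted p = 0.37). All 8 A-CRF arrays were below the Control median, and the lowest value was that of A-CRF 1.

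The actin-binding proteins Tagln and Cnn1 lay close to the threshold or short of it. Tagln had 11.51 to 11.76 (median 11.64) in A-CRF and 11.77 to 12.21 (median 11.83) in Control. The groups did not overlap, as for Actg2. Such a separation was found with A-CRF lower for 2 of the 9 genes and 0.438% of all probe sets, with A-CRF higher for 0 genes and 0.944%, and in either direction for 1.38% of all probe sets. How these shares depend on mean level was not tested. The Tagln change was -0.26 ± 0.07 log2 units (SE) with an adjusted p of 0.059. It passed in 5 of the 14 other settings, as did Myh11. For Tagln the 5 held the one without the 3 arrays of large GAPDH difference (-0.22, adjusted p = 0.047). They also held the exact rank-sum test, which restates the lack of overlap. Cnn1 had 9.67 to 10.49 (median 10.16) in A-CRF and 10.32 to 11.10 (median 10.44) in Control, and 7 of 8 A-CRF arrays were below the Control median. Its change of -0.42 ± 0.13 (SE) was larger than that of Tagln but more variable, and did not pass (adjusted p = 0.13).

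**Figure D2:**
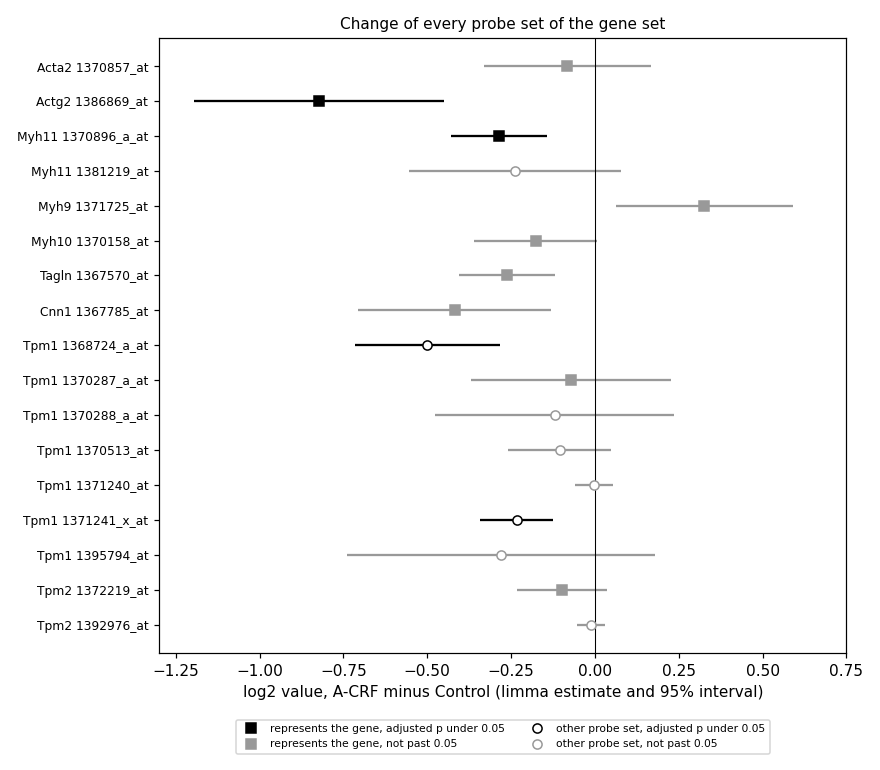
Change of each of the 17 probe sets in log2 units, A-CRF minus Control, with the 95% interval of the limma estimate. Squares represent the gene, circles are its other probe sets, and black marks those with an adjusted p under 0.05, which are Actg2, Myh11 and 2 probe sets of Tpm1.

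The tropomyosins differed by probe set. Tpm1 was measured by 7 probe sets, whose changes ran from -0.50 to -0.0034 log2 units, all below 0. The probe set that represents Tpm1 (1370287_a_at) had 10.42 to 10.98 (median 10.73) in A-CRF and 10.50 to 11.56 (median 10.76) in Control, with a change of -0.07 ± 0.14 (SE, adjusted p = 0.91). This sign turned without Control 1 (0.07) and without the 3 arrays of large GAPDH difference (0.01).

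A weaker Tpm1 probe set, 1368724_a_at, behaved otherwise. It had 5.88 to 6.46 (median 6.17) in A-CRF and 6.49 to 7.13 (median 6.66) in Control, so that the groups did not overlap. The change was -0.50 ± 0.10 log2 units (SE), a 1.41-fold lower level (limma, adjusted p = 0.024). The call was lost without Control 2 or Control 4 (adjusted p of 0.051 each) and with the score of fat cell markers as a covariate (0.066). Without the 3 arrays of large GAPDH difference the change was -0.43 (adjusted p = 0.029). The suffix _a_at marks probes that fit several transcripts of 1 gene. Which transcripts of Tpm1 each probe set reads is not annotated in the sources used here.

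Another dim Tpm1 probe set, 1371241_x_at, averaged 5.52 ± 0.07 in A-CRF and 5.75 ± 0.13 in Control (SD, n = 8 and 6), again without overlap (-0.23 ± 0.05, SE, adjusted p = 0.032). Its suffix marks probes that can match other sequences, and both means were less than 1 log2 unit from the low end of the range. The call was lost without A-CRF 3, 4, 5 or 8 or Control 2, 4 or 5, with adjusted p up to 0.065, and with the clock score (0.051) or the fat score (0.10) as a covariate. Without the 3 arrays of large GAPDH difference the change was -0.19 (adjusted p = 0.017). The probe set 1371240_at, annotated to the same sequence record, had a change of -0.0034 ± 0.026 (SE).

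The mean of the 7 probe sets, taken as the value of Tpm1, changed by -0.19 and passed (adjusted p = 0.027), whereas no call was made for the representing probe set. The remaining Tpm1 probe sets had changes of -0.28 ± 0.21, -0.12 ± 0.17 and -0.11 ± 0.07 (SE) and did not pass. On 1370288_a_at the 2 lowest values, 7.89 and 7.98, were those of A-CRF 1 and A-CRF 4, and on 1395794_at the lowest, 6.76, was that of Control 1. These were the arrays with the large GAPDH differences. Over all 17 probe sets 4 were lower and 0 higher, against 2.05% called in either direction over all probe sets. That share was 0.927% for means up to 6 and higher in every brighter band. Probe sets of 1 gene are not independent measurements.

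**Figure D3:**
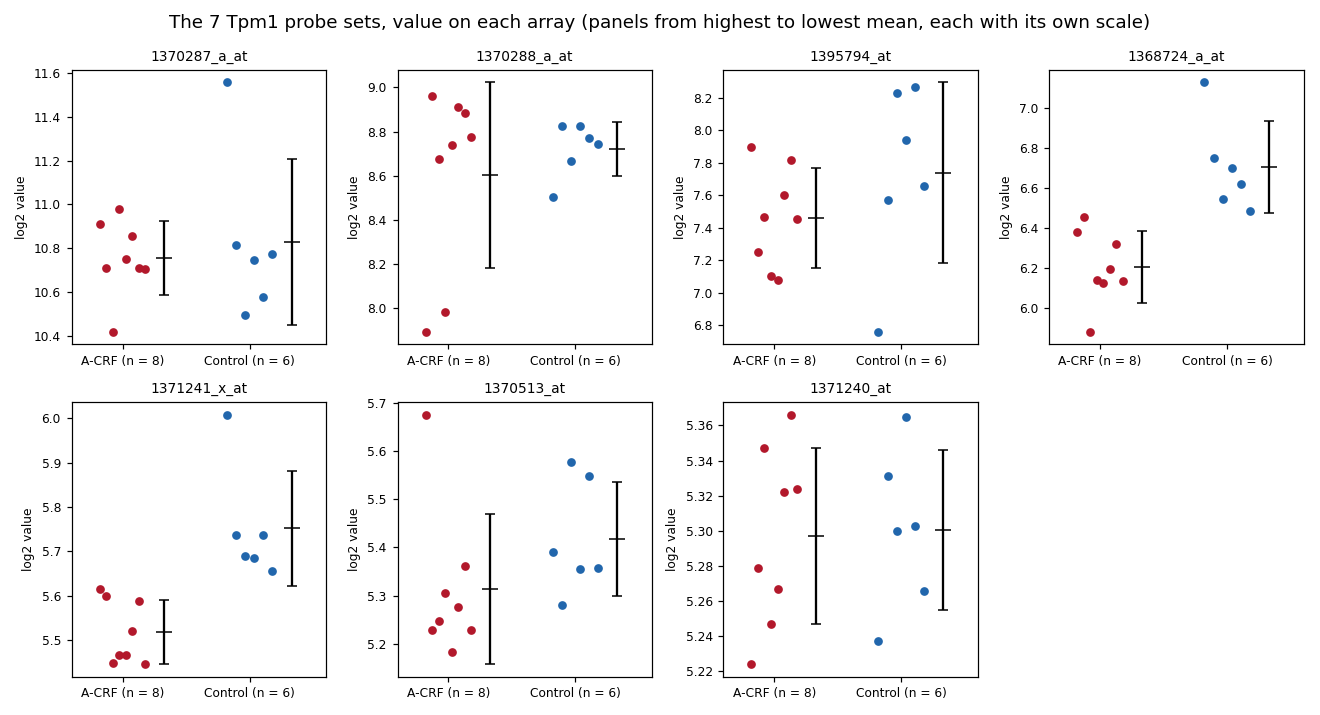
Log2 values of the 7 Tpm1 probe sets (y axis, own scale per panel, ordered from the highest to the lowest mean) on the 8 A-CRF and 6 Control arrays, with the group mean and SD. The groups overlap for 1370287_a_at, with Control 1 far above, and separate for 1368724_a_at and 1371241_x_at.

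Tpm2, the beta-tropomyosin of smooth and slow muscle, had 11.82 to 12.24 (median 12.11) in A-CRF and 12.04 to 12.36 (median 12.19) in Control. Its change of -0.10 ± 0.06 log2 units (SE) did not pass (adjusted p = 0.55). Its second probe set, at 5.62 in A-CRF and 5.63 in Control, changed by -0.01 ± 0.02 (SE).

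The balance between isoforms was followed as the difference of 2 genes' log2 values within each array. Such a difference removes what an array shifts in both genes alike. It shows unequal change, but not how much of each transcript was present, because different probe sets bind with different strength. For 6 pairs the group means of these differences were compared by an exact two-sided permutation test over samples (3003 regroupings, smallest possible p = 0.000333). Benjamini-Hochberg adjustment was over the 6 pairs, which were chosen with earlier results of these data known. Single genes were adjusted over all probe sets, so adjusted p-values of pairs and of genes cannot be compared. The unadjusted limma p was 0.000324 for Actg2 and 0.000768 for Myh11. The permutation p was 0.000666 for Actg2 minus Acta2 and 0.0013 for Myh9 minus Myh11.

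Actg2 was lower relative to Acta2 in A-CRF. The difference Actg2 minus Acta2 had values of -1.68 to -0.92 (median -1.40) in A-CRF and -1.08 to -0.10 (median -0.71) in Control, with a small overlap. Its mean was -1.39 ± 0.24 in A-CRF and -0.65 ± 0.35 in Control (SD, n = 8 and 6), a shift of -0.74 log2 units (exact permutation p = 0.000666, adjusted p = 0.0040). Without any 1 array the shift was between -0.83 and -0.63, with adjusted p up to 0.0070. Without the 3 arrays of large GAPDH difference it was -0.71 (adjusted p = 0.0065).

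The non-muscle heavy chain Myh9 was higher relative to the smooth muscle heavy chain Myh11. The difference Myh9 minus Myh11 was -3.26 to -2.44 (median -2.90) in A-CRF and -3.59 to -3.37 (median -3.55) in Control, and the groups did not overlap. Its mean was -2.92 ± 0.31 in A-CRF and -3.53 ± 0.08 in Control (SD, n = 8 and 6), a shift of 0.61 log2 units (exact permutation p = 0.0013, adjusted p = 0.0040). Each fit without 1 array gave a shift of 0.54 to 0.66 and an adjusted p of at most 0.0070. Without the 3 arrays of large GAPDH difference the shift was 0.55 (adjusted p = 0.0065). With the dimmer Myh11 probe set in place of the brighter the shift was 0.56 but did not pass (adjusted p = 0.11). Whether the shift lay within smooth muscle cells or in the mix of cells was not tested.

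The second non-muscle heavy chain was set against both others. Myh10 minus Myh11 was -2.40 ± 0.18 in A-CRF and -2.51 ± 0.20 in Control (SD, n = 8 and 6), a shift of 0.11 that did not pass (exact permutation p = 0.30, adjusted p = 0.35). Myh10 minus Myh9 was 0.02 to 1.03 (median 0.52) in A-CRF and 0.56 to 1.29 (median 1.06) in Control, a shift of -0.50 (exact permutation p = 0.016, adjusted p = 0.033). That call was lost without A-CRF 1, 2, 3 or 4 or Control 3, 4, 5 or 6 (adjusted p up to 0.082). Without the 3 arrays of large GAPDH difference the shift was -0.43 (adjusted p = 0.022).

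The difference Tpm2 minus Tpm1 averaged 1.33 ± 0.26 in A-CRF and 1.36 ± 0.28 in Control (SD, n = 8 and 6), a shift of -0.03 (exact permutation p = 0.86, adjusted p = 0.86). This sign depended on the Tpm1 probe set, and with the mean of the probe sets of each gene the shift was 0.13 (adjusted p = 0.11). Acta2 minus Myh11 averaged -1.21 ± 0.26 in A-CRF and -1.41 ± 0.16 in Control (SD, n = 8 and 6), a shift of 0.20 that did not pass (exact permutation p = 0.099, adjusted p = 0.15).

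**Figure D4:**
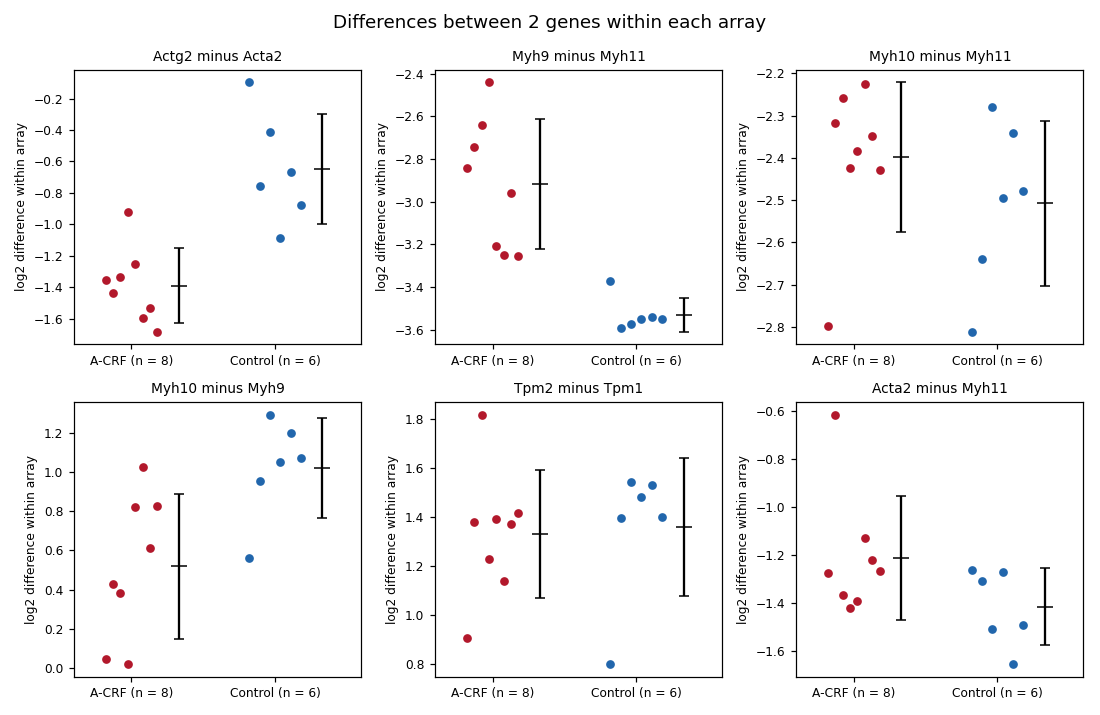
Difference in log2 value between 2 genes within each array (y axis) for the 6 pairs, on the 8 A-CRF and 6 Control arrays, with the group mean and SD. Myh9 minus Myh11 separates the groups completely, and Actg2 minus Acta2 nearly so.

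Several of the genes stood near the top of the value range, where a probe can run out of binding sites and changes are compressed. The highest value in the table was 12.64, and 14 probe sets had a mean over 12. By mean over the 14 arrays the representing probe set of Tpm2 ranked 10 of 31042, Tagln 26, Myh11 31, Tpm1 134, Acta2 200 and Cnn1 216. Those ranks give the position of a probe set in the range, not the abundance of its transcript. On single arrays Tpm2 reached 12.36, within 0.28 log2 units of the highest value of the table, Tagln 12.21 (within 0.43) and Myh11 12.03 (within 0.61).

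Over all probe sets the spread within groups was largest in the middle of the range. The median SD within groups was 0.156 log2 units for the 439 probe sets with a mean of 9 to 10, 0.141 for the 154 with a mean of 10 to 11, 0.082 for the 96 with a mean of 11 to 12, and 0.127 for the 14 above 12. Tagln and Myh11, both at 0.132, had a larger spread than the median of their band. Tpm2, at 0.124, was close to the median of its own. Actg2 had an SD of 0.347, or 2.23 times the median of its band.

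Calls were made near the top as well. In the band of 11 to 12, 10 of 96 probe sets passed (10.4%), and above 12, 2 of 14 (14.3%), against 2.05% over the whole table and 44 of 439 for a mean of 9 to 10. The median absolute change was 0.017 log2 units for means up to 6, 0.084 at 7 to 8, 0.132 at 9 to 10, 0.080 at 11 to 12 and 0.099 above 12. The table holds no saturation flags, so whether the changes of Myh11, Tagln and Tpm2 are compressed was not tested. For Myh11, the dimmer probe set at 6.56 gave a change of -0.24 against -0.29 for the one at 11.71.

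**Figure D5:**
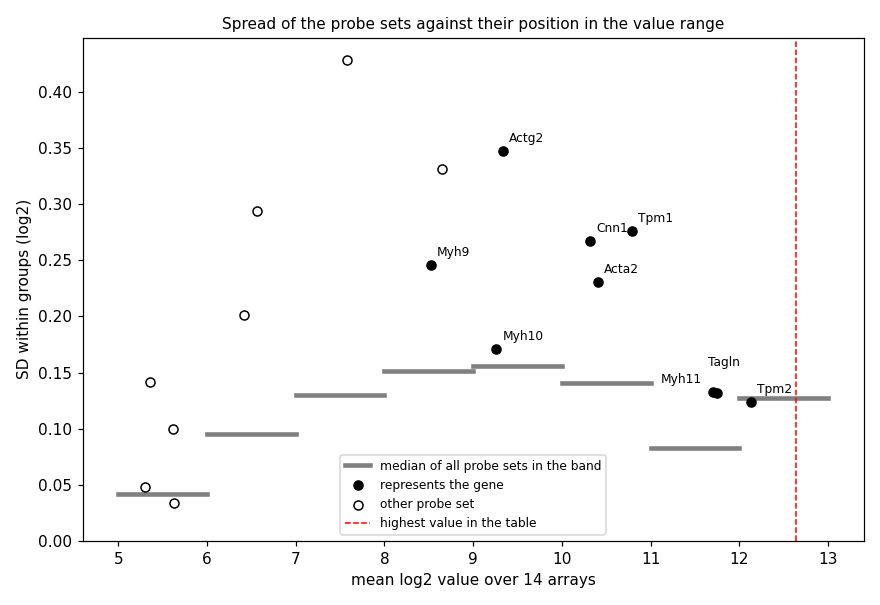
SD within groups (log2 units) of the 17 probe sets against their mean over the 14 arrays, with grey lines for the median SD of all probe sets in each band of 1 log2 unit (the first band holds all means up to 6) and a dashed line at the highest value of the table, 12.64. Tpm2, Tagln and Myh11 stand nearest the top, and Tagln and Myh11 lie above the grey line of their band.

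Some of the genes varied together on arrays of the same group. After the group means were subtracted, Actg2 correlated with Tagln at r = 0.87, Actg2 with Cnn1 at r = 0.84 and Tagln with Cnn1 at r = 0.85 over the 14 arrays. Without Control 1 these were 0.67, 0.71 and 0.72. Across the 36 pairs of the 9 genes r ran from -0.44 (Myh10 with Tagln) to 0.87, with a median of 0.37, or 0.24 without Control 1. Tpm1 followed this trio, with r = 0.78 for Actg2, 0.81 for Tagln and 0.81 for Cnn1. Without Control 1 these were 0.35, 0.51 and 0.65. Myh11 had r = 0.33 for Actg2, 0.42 for Tagln and 0.27 for Cnn1, or 0.048, 0.22 and 0.025 without Control 1. Tpm1 and Tpm2 had r = 0.27, or -0.17 without Control 1. These are descriptions of values that share arrays and a common scaling. Acta2 followed Cnn1 (r = 0.76), though its group means hardly differed, and Myh10 ran against Tagln and Cnn1 (r = -0.44 and -0.41).

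Other genes of the same families were read as 42 genes measured out of a list of 47, and none passed (limma, adjusted p under 0.05). At an unadjusted p under 0.05 there were 7 higher and 5 lower (16.7% and 11.9%). The shares were 9.74% and 8.88% of all named genes, likewise read by their brightest probe set. Over all probe sets, most of them dim, they were 7.19% and 7.23%. The exact rank-sum test called 0 of the 42. Only 18 of the 42 stood more than 1 log2 unit over the low end of the range in Control, and the median change was -0.0061 log2 units, against -0.18 for the 9 genes described above.

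The cytoplasmic actin Actg1 had 11.43 ± 0.16 in A-CRF and 11.33 ± 0.10 in Control (SD, n = 8 and 6), a change of 0.10 ± 0.07 (SE). Actb was listed only on probe sets shared with Actg1 and Actg1l1 and has no value here. The regulatory light chain Myl9 changed by -0.08 ± 0.09 (SE) and the thin-filament protein caldesmon, Cald1, by 0.16 ± 0.07. For smoothelin, Smtn, the change was -0.23 ± 0.17, and for leiomodin, Lmod1, which nucleates actin filaments, -0.29 ± 0.14. The largest changes among genes above the low end of the range were 0.43 ± 0.19 for the skeletal alpha-actin Acta1, -0.33 ± 0.20 for the skeletal heavy chain Myh1 and 0.29 ± 0.09 for the non-muscle tropomyosin Tpm4, beside that of Lmod1. Another tropomyosin, Tpm3, named after its value was seen, had a change of 0.29 ± 0.08 (SE, adjusted p = 0.072). Its other probe sets had changes of -0.019 to 0.30, and none passed.

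Marker lists of other cell types differed in their counts. Of 8 macrophage markers 7 were higher in A-CRF, and their mean level was 7.39 to 7.82 on the A-CRF arrays and 6.98 to 7.14 on the Control arrays. None of 8 fat cell markers passed, but their mean ran from 6.57 to 8.11 in A-CRF and from 7.39 to 8.43 in Control. None of 6 fibroblast markers passed, with a mean of 9.60 to 9.89 in A-CRF and 9.39 to 9.62 in Control. None of 6 endothelial and none of 6 cardiac markers passed, with means of 6.59 to 6.88 and 5.56 to 5.67 in A-CRF and of 6.55 to 6.81 and 5.60 to 5.79 in Control. The part of macrophages in the changes of Actg2, Myh11 and Myh9, and in Myh9 minus Myh11, was not tested. With the fat score as a covariate the change of Actg2 was -0.93 (adjusted p = 0.039) and that of Myh11 -0.31 (adjusted p = 0.085). With a score of circadian clock genes, which was above 0 on A-CRF 6, 7 and 8 and on 4 Control arrays, these were -0.90 (adjusted p = 0.038) and -0.28 (adjusted p = 0.0998).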

How the data were processed

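The deposited table holds 1 log2 value per probe set and array, a probe set summary. The submitters' processing notes name PLIER, without a version. The sources used here give neither background correction nor normalization nor an offset, and the log base was inferred from the range of the deposited values (4.82 to 12.64). Of 31099 probe sets, 57 control probe sets were left out. Names came from the platform annotation, and coordinates and promoter sequences from RefSeq (GRCr8). For arrays their number limits the precision.

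The comparison of A-CRF with Control used limma 3.58.1 in R 4.3.3 (lmFit and eBayes, group as the only factor, two-sided, Benjamini-Hochberg over 31042 probe sets, threshold 0.05). The code was tested on simulated data. Within-array differences of 6 gene pairs used exact permutation tests. The genes, pairs and lists were chosen with earlier results of these data known. All genes of the set were named. Of the other family genes, those past the threshold, the 4 with the largest change above the low end of the range, and Actb, Actg1, Myl9, Cald1, Smtn and Lmod1 were named. For Actg2 and Myh11 the 5 most similar genes were named.

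Alternatives were another scale, normalization, filter, variance model, array weights, test, probe set choice or covariate (clock score, fat score, GAPDH difference), and left-out arrays.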

Additional observations from a re-analysis of the deposited data

Results flagged for a closer look

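In 62 groups of values (the probe sets of the genes described, the other named genes and the 6 balances, A-CRF and Control apart), 11 held an array far from the rest by Dixon's gap test, which chance alone gives in about 1 of 20 groups. These groups share arrays and are not independent. Control 1 stood above the other Control arrays for Actg2 at 10.67 (next 9.89), for the Tpm1 probe sets 1370287_a_at at 11.56 (next 10.81) and 1371241_x_at at 6.01 (next 5.74), and for Smtn at 8.70 (next 7.85). It also stood apart in Myh9 minus Myh11 at -3.37 (next -3.54) and in Tpm2 minus Tpm1 at 0.80 (next 1.40). A-CRF 1 was apart for Myh10 at 8.73 (next 9.05), for the Tpm1 probe set 1370513_at at 5.68 (next 5.36) and for Myh10 minus Myh11 at -2.80 (next -2.43). Control 1 and A-CRF 1 are among the 3 arrays with a large GAPDH 3' minus 5' difference. Without these 3 arrays the Actg2 change was -0.70 (adjusted p = 0.014). A-CRF 2 was apart for Acta2 minus Myh11 at -0.62 (next -1.13), and Control 6 for Tpm4 at 9.12 (next 9.41).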

How the results depend on the processing

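The change of Actg2 kept its direction and its call in all 14 alternatives other than leaving out single arrays (-0.93 to -0.70), and the balance Actg2 minus Acta2 in all 6 that applied to it. Among these, the alternatives in probe set choice could not alter the values, because Actg2 and Acta2 each had only 1 probe set. The count of lower genes was 2, and it was 1 with quantile normalization, with trend and robust options, with the second-highest or only single-transcript probe sets, and with the clock or the fat covariate. It was 3, with Tagln added, with dim probe sets left out, with array weights and with the GAPDH covariate (Tagln adjusted p = 0.042, 0.021 and 0.022). Without single arrays it ran from 0 to 2. The 2 genes were Actg2 and Tagln in the rank-sum test and without the 3 arrays of large GAPDH difference, and Actg2 and Tpm1 with the mean of probe sets. The rank-sum test called 429 probe sets, the number whose groups did not overlap. It therefore restates that separation. Other family genes past the threshold numbered 1 higher with dim probe sets left out (Tpm3) and with array weights (Myl12a), and 1 lower with array weights (Tmod1), with the mean of probe sets (Tmod1) and with the GAPDH covariate (Lmod1). Without single arrays, 0 to 1 were higher. Tpm3, Myl12a and Tmod1 were named after their values were seen. The 636 calls over all probe sets became 1457 with array weights, 289 with the clock covariate, 185 with the fat covariate, 1041 with the GAPDH covariate and 307 to 979 without single arrays. Myh9 minus Myh11 gave 0.56 (adjusted p = 0.11) with the second-highest and with only single-transcript probe sets. Both settings used the same probe sets for this pair and are 1 comparison. Tpm2 minus Tpm1 turned to 0.13, 0.11 and 0.18 with the mean, the second-highest and the single-transcript probe sets, and ran from -0.139 to 0.0341 without single arrays. Myh10 minus Myh9 ran from -0.60 to -0.43. Acta2 turned to 0.0163 and Tpm1 to 0.0114 without the 3 arrays of large GAPDH difference, and Tpm1 ran from -0.138 to 0.0744 without single arrays. The cause of these shifts was not tested. No paired analysis was possible because the replicate numbers were given in accession order and pair no samples. Changes of dim probe sets are limited by the low end of the range.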

Other observations

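The genes whose values followed Actg2 most closely across the 14 arrays, after the group means were subtracted, were Flnc, a muscle filamin that cross-links actin (r = 0.88), Wdr1, a cofactor of actin disassembly (r = 0.88), Mfsd10 (r = 0.87), Tagln (r = 0.87) and ST7 (r = 0.86). Without Control 1 these were 0.79, 0.70, 0.79, 0.67 and 0.64. The genes named here for Actg2 and below for Myh11 were picked as the highest out of 9317 candidate genes. How high the largest r among so many unrelated genes would be was not tested. None of the 5 passed the test of A-CRF against Control, with Flnc at -0.26 ± 0.13 log2 units (SE, adjusted p = 0.39) and Wdr1 at -0.15 ± 0.15.

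For Myh11 the closest were Lhfpl6 (r = 0.90), Apba1 (r = 0.87), Lhpp (r = 0.84), Fgf12 (r = 0.83) and Nnt (r = 0.83), and no gene of the contractile set was among them. Lhfpl6 was higher in A-CRF by 0.17 ± 0.04 log2 units (SE, limma, adjusted p = 0.029), the opposite direction to Myh11. Among 9 skeletal muscle markers Ckm, the muscle creatine kinase, was lower, averaging 5.68 ± 0.10 on A-CRF and 6.09 ± 0.22 on Control arrays (SD, n = 8 and 6), a change of -0.41 ± 0.08 (SE, adjusted p = 0.023), while the other 8 did not pass.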
